A study of Mus musculus with 9 samples.

Results

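The comparison described here set inguinal fat of Tet1 KO mice against that of WT mice at room temperature (RT, 23 °C), in 4 of the 9 RNA-seq libraries of the experiment. The KO mice carried floxed Tet1 alleles with Fabp4-Cre, a line with Tet1 loss directed to fat (Adi-Tet1KO), and the WT mice were floxed Tet1 controls. All were on a C57BL/6 background and ate chow, and the labels state neither their age nor their sex. The series' design text gives 3 mice per group, and 2 libraries of each group at RT were analysed here. The members were chosen by the names of the columns in the count table, which give mice 1786 and 1814 as KO at RT and mice 1788 and 1810 as WT at RT, 1 library per mouse. The other 5 libraries, from 2 KO and 3 WT mice kept at 4 °C for 4 h, entered the same fit and are set beside the RT values where they bear on them.

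Several features of the design limit what a difference between these libraries stands for. For KO mouse 1786 the column name gives RT and the sample title gives cold, and for KO mouse 1781 the column name gives cold and the title gives RT. The column names were followed, and some of the results that rest on mouse 1786 are given with and without it, most of them for gene lists. Fabp4-Cre is also active in macrophages, as the study's text says. The study found no significant change of Tet1 in the stromal-vascular fraction, in which macrophages lie. It also saw no discernible effect of macrophages from KO mice on thermogenic genes of co-cultured beige adipocytes. The sample labels describe flash-frozen inguinal white adipose tissue, while the study's text describes fractionated adipocytes. In such bulk samples, fewer cells of a type and less RNA of a gene per cell cannot be told apart.

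Inguinal fat of the mouse is a white depot that can gain beige adipocytes, cells that burn fuel to make heat. Beige and brown adipocytes take up and activate fatty acids, carry them into mitochondria and oxidize them, and the uncoupling protein UCP1 lets the proton gradient run down as heat in place of ATP. This programme is switched on by noradrenaline through the beta-3 adrenergic receptor and cAMP, and coactivators such as PGC-1alpha raise mitochondrial genes with it. TET1 is a dioxygenase that oxidizes 5-methylcytosine and can also act on transcription without that activity. Room temperature is a mild cold stress for a mouse.

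The 4 libraries at RT held 51594598 to 56292251 counts, without those of mitochondrial transcripts, and levels are given as CPM, counts scaled to the size of the library after correction by TMM (trimmed mean of M values). Values of a group are given in the order of mouse number, 1786 before 1814 for KO and 1788 before 1810 for WT. The libraries of a group had Pearson's r of 0.983 for KO and 0.984 for WT over the log2 levels of the genes, which are no independent replicates. Among genes called for 4 h of cold in the WT mice alone (61 higher and 43 lower), the median log2 level, relative to WT mice at RT, was 0.27 and -0.086 in KO mouse 1786 and 0.35 and -0.27 in KO mouse 1814. In the 5 libraries of the cold columns it was 1.20 to 1.40 for the higher and -1.134 to -0.996 for the lower genes, so that mouse 1786 stood with the RT libraries by this measure. The 16 adipocyte markers, Adipoq and Fabp4 among them, summed to 43064 and 40966 CPM in KO, against 44939.5 and 44319 CPM in WT, and all of them were detected.

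Tet1 itself, the targeted gene, was not lower in the libraries labelled KO. It had 12.3 and 5.91 CPM in KO, against 4.51 and 4.01 CPM in WT, and both KO values lay above both WT values. The log2 fold change was 1.10 (SE 0.40) with an adjusted p of 0.633 from edgeR's quasi-likelihood test, and an exact permutation test of the CPM values gave p = 0.333, the smallest that 6 arrangements of 4 libraries allow. Without KO mouse 1786 the log2 fold change was 0.48. The counts run over the gene as a whole, and which exons were floxed is not named in the labels or the study's text, so the comparison is one between libraries labelled KO and libraries labelled WT. For this line the study reported a knockdown of Tet1 mRNA, measured by qPCR in purified adipocytes of inguinal fat and other depots.

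Across the 16745 genes tested, few passed the threshold. Genes were called at a Benjamini-Hochberg adjusted p under 0.05 and a fold change above 1.5, in edgeR's quasi-likelihood test. By this rule 6 genes rose in KO at RT, 0.0358% of the genes tested, and 0 fell, 0%. At an unadjusted p under 0.05, a description used below for the gene lists, 448 genes were higher (2.68%) and 791 lower (4.72%). In 3313 genes (19.8%) both KO libraries lay above both WT libraries, and in 3873 (23.1%) both lay below. Standard errors (SE) beside log2 fold changes were derived from the test itself, as the size of the log2 fold change over the square root of its F statistic. With DESeq2's Wald test 61 genes were called higher and 58 lower, and with edgeR's likelihood ratio test 53 and 56.

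The genes that rose belong to the handling of fatty acids, to respiration and to glycogen storage, with 1 neuronal gene beside them. Cpt1b, the muscle-type carnitine palmitoyltransferase through which long-chain fatty acids enter mitochondria, lies at chr15:89416405-89425863 (mm10, minus strand). It had 51.9 and 81.9 CPM in KO, against 7.003 and 6.31 CPM in WT, and the log2 fold change was 3.33 (SE 0.32) with an adjusted p of 0.0321 from edgeR's quasi-likelihood test. Slc27a2, an acyl-CoA synthetase for very long-chain fatty acids that also takes part in fatty acid uptake, lies at chr2:126552407-126588243 on the plus strand. It had 6.32 and 9.38 CPM in KO, against 1.31 and 1.28 CPM in WT, with a log2 fold change of 2.60 (SE 0.26). The WT values of each gene were close to each other, and in both genes KO mouse 1814 was the higher of its pair.

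Cox7a1, the form of cytochrome c oxidase subunit 7A that muscle and brown fat use, lies at chr7:30184144-30186078 on the plus strand. It had 12.4 and 15.3 CPM in KO, against 2.83 and 3.25 CPM in WT, with a log2 fold change of 2.19 (SE 0.23). Ppp1r3b, which brings protein phosphatase 1 to glycogen and so favours glycogen synthesis, lies at chr8:35375739-35388139 on the plus strand. It had 61.2 and 59.7 CPM in KO, against 15.6 and 19.6 CPM in WT, with a log2 fold change of 1.78 (SE 0.19), and its KO values were the closest to each other of the 6 genes.

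Myt1l, a zinc finger transcription factor of neurons, was close to absent in WT. It lies at chr12:29528384-29923213 on the plus strand and had 5.63 and 7.27 CPM in KO, against 0.0374 and 0.0393 CPM in WT. These were 692 counts over both KO libraries, against 4 over both WT libraries. The ratio after scaling was 167, with an exact 95% counting interval of 64.8 to 614 that leaves out the spread between mice. Gm44502, at chr15:89416405-89429696 on the minus strand, is a gene model whose exons overlap those of Cpt1b on the same strand, and those of its neighbour Chkb. The longest overlap of a single exon with one of Cpt1b was 575 bases. It had 91.2 and 125 CPM in KO, against 31.4 and 40.01 CPM in WT, with a log2 fold change of 1.60 (SE 0.18), and its counts cannot be fully separated from those of Cpt1b. The adjusted p of the 6 called genes, Cpt1b, Slc27a2, Cox7a1, Ppp1r3b, Myt1l and Gm44502, lay between 0.0321 and 0.0438 in edgeR's quasi-likelihood test.

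Several of these genes are also genes of muscle, and markers of skeletal muscle were set beside them. The 15 markers, all detected, summed to 99.4 and 86.4 CPM in KO, against 78.4 and 67.7 CPM in WT, and 4 of them (26.7%, against 19.8% of all genes) had both KO libraries above both WT libraries and 2 (13.3%, against 23.1%) the reverse. Ckm, muscle creatine kinase, picked out after its values had been seen, had 3.89 and 3.15 CPM in KO, against 2.96 and 0.433 CPM in WT. Of the 15 markers, 12 had positive and 3 negative log2 fold changes. The myosin genes Myh1 and Myh2 were among the negative ones, at -0.81 and -0.86, and Acta1, an actin of muscle, lay at 0.02. The part of muscle RNA in the values of Cpt1b and Cox7a1 was not tested.

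The 6 calls depended on single libraries although the values of KO and WT lay far apart. In fits that left out 1 library, the log2 fold changes stayed between 2.96 and 3.63 for Cpt1b, 2.29 and 2.86 for Slc27a2, 2.02 and 2.34 for Cox7a1, 1.63 and 1.95 for Ppp1r3b, 7.11 and 7.48 for Myt1l and 1.35 and 1.81 for Gm44502. The number called higher was 0 without any single one of mice 1814, 1788, 1810, 1781, 1782 or 1773, 3 without mouse 1783, 4 without mouse 1812 and 6 without mouse 1786. Without mouse 1786, Cox7a1 and Ppp1r3b were no longer called, and Acot11 and Fam151a, which overlap on opposite strands, were. With the housing of the sample titles 5 of the 6 genes remained called, all but Slc27a2, without both mice of conflicting labels Cpt1b, Slc27a2 and Gm44502 remained, and in a fit of the 4 RT libraries alone 0 did. Fits that leave 1 library in a group take its spread from the other groups.

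Upstream sequences are shown for the gene with the largest fold among the calls, for the respiratory subunit that was called and for Ucp1, the gene that defines the thermogenic programme. They are RefSeq sequence of GRCm38.p6, 5′ to 3′ on the gene's strand, and end before the first base of the gene in either annotation, with matches to the nuclear receptor element AGGTCA or its complement TGACCT in capitals. The regions are chr12:29528134-29528383 for Myt1l, chr7:30183921-30184143 for Cox7a1 and chr8:83290098-83290347 for Ucp1, all on the plus strand.
Myt1l: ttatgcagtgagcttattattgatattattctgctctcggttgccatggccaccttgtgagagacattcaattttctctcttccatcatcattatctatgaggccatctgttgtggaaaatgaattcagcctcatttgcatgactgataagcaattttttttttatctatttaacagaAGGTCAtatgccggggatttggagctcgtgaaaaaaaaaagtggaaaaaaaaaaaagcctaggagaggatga
Cox7a1: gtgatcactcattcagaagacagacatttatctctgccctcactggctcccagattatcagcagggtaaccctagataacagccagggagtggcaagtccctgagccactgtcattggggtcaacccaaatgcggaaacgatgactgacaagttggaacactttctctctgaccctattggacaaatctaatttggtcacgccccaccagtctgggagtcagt
Ucp1: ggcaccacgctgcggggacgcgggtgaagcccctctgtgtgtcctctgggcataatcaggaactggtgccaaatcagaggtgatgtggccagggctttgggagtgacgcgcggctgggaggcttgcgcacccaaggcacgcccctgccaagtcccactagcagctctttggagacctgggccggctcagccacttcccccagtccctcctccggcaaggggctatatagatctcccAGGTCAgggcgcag
The element stood once each upstream of Myt1l and of Ucp1, where it lay 14 bases before the start site, and in none of the bases shown for Cox7a1. Of 32851 RefSeq promoter windows of 300 bases, 16.3% hold this element on either strand. Some genes have several windows, and of 27025 genes 18.1% have the element in any of theirs. A window was present for 16 of the 27 named genes searched, and 6 of these genes had a match, the other 4 being Slc27a2, Atp7b, Cpn2 and Tet1. The palindromic E-box CACGTG, in 7.15% of windows, matched only in that of Slpi among these genes, at position -146 from its start. No window of these genes held the cAMP response element TGACGTCA (1.79% of windows), the D-box TTATGTAA (0.94%), the extended element TCAAGGTCA (0.42%) or 2 of the elements repeated with a spacer of 1 base (0.040%), where the extended element and the repeat overlap the element AGGTCA by construction.

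**Figure D1:**
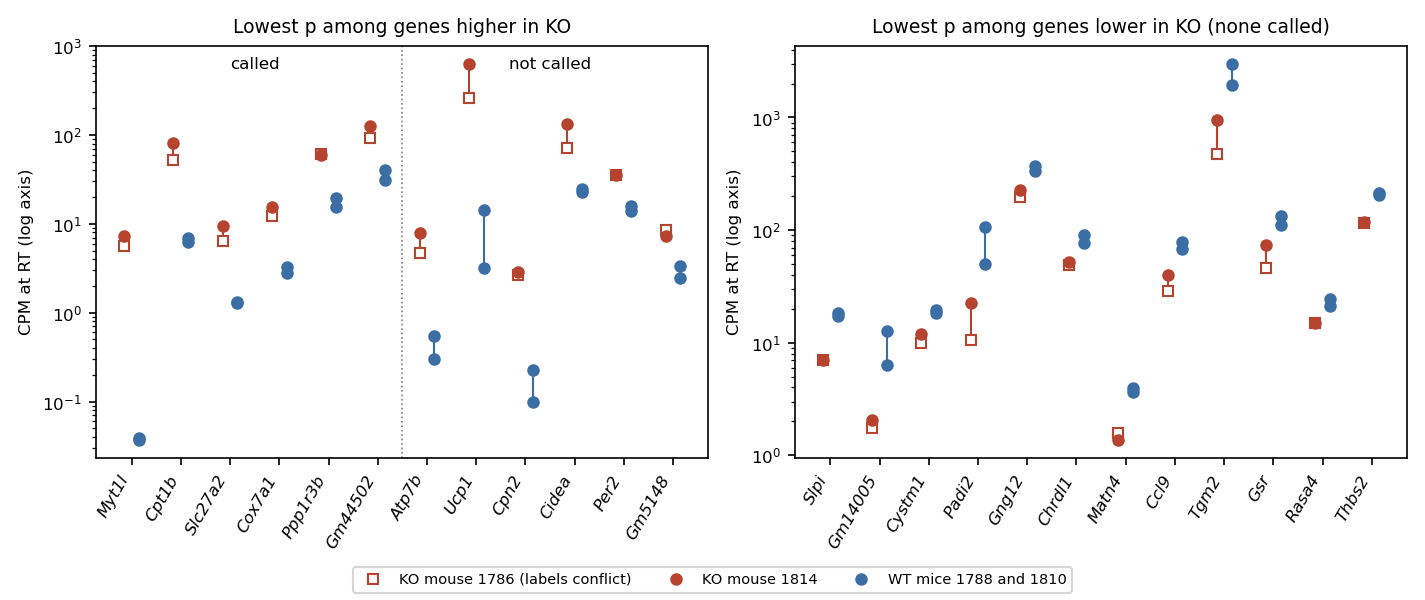
CPM at RT (log axis) of each KO library (left of each pair, open squares for mouse 1786) and each WT library (right) for the 12 genes of lowest p in each direction whose libraries did not overlap. The 6 called genes, at the left of the first panel, all had KO values above WT, and Myt1l and Ucp1 had the widest gaps, while none of the 12 genes at the right was called.

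The 6 genes next in line by their p were not called. Ucp1, the uncoupling protein of brown and beige fat, had 261 and 623 CPM in KO, against 14.5 and 3.15 CPM in WT, and the log2 fold change was 5.65 (SE 0.75) with an adjusted p of 0.0877 from edgeR's quasi-likelihood test. The mice differed widely within each group, yet the lower KO value was far above the higher WT value. Cidea, a lipid droplet protein of brown and beige fat, had 71.6 and 134 CPM in KO, against 24.3 and 22.7 CPM in WT. Atp7b, a copper-transporting ATPase best known in liver, had 4.72 and 7.98 CPM in KO, against 0.300 and 0.551 CPM in WT, with an adjusted p of 0.0737 from edgeR's quasi-likelihood test. Both WT values of Atp7b lay below 1 CPM. Cpn2, the regulatory subunit of the plasma enzyme carboxypeptidase N, had 2.67 and 2.86 CPM in KO, against 0.225 and 0.0983 CPM in WT. The gene model Gm5148 had 8.57 and 7.31 CPM in KO, against 2.47 and 3.38 CPM in WT, and the 12th of the genes is Per2, a clock gene described below.

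Of 29 tested genes of the thermogenic programme 3 were called, Cpt1b, Slc27a2 and Cox7a1, against 0.0358% of all genes tested. Most of its members stood higher in KO at RT. Of the 29, 15 were higher and 2 lower at an unadjusted p under 0.05, against 2.68% and 4.72% of all genes. In 19 of the 29 both KO libraries lay above both WT libraries (65.5%, against 19.8% of all genes). The median log2 fold change was 0.83, against -0.00518 over all genes tested. It was 1.11 without KO mouse 1786, 0.40 without KO mouse 1814 and 1.03 with the housing of the titles. The list was written with earlier results of these data known. Many of its members, all the called ones among them, are genes that the study reported as higher in KO from these same data. Its share and median are therefore a description and no independent support.

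Within the programme, the values of single genes ran from well above WT to below it. Fabp3, a fatty acid binding protein of heart and brown fat, had 8.40 and 4.28 CPM in KO, against 0.262 and 0.256 CPM in WT. Dio2, the deiodinase that makes active thyroid hormone inside the cell, had 54.1 and 83.5 CPM in KO, against 19.6 and 10.9 CPM in WT, and WT mouse 1788 stood above WT mouse 1810. Otop1, a proton channel found in brown fat, had 16.1 and 49.1 CPM in KO, against 8.31 and 7.002 CPM in WT. The groups did not overlap for any of these 3 genes, and none of them was called in the fit of all libraries. Fabp3 is also a muscle gene, and was called without WT mouse 1812 of the cold group. Cox8b, another muscle-type subunit of cytochrome c oxidase, had 70.7 and 85.5 CPM in KO, against 35.5 and 40.3 CPM in WT. Gk, the glycerol kinase that lets adipocytes reuse glycerol, had 26.2 and 52.2 CPM in KO, against 14.8 and 13.5 CPM in WT. Clstn3, whose brown fat form keeps lipid droplets multilocular in mice, had 40.7 and 71.7 CPM in KO, against 30.8 and 30.7 CPM in WT. In Gk and Clstn3, as in Otop1, KO mouse 1814 stood well above KO mouse 1786.

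Of the regulators given next, 3 lay above WT and 2 overlapped with it. Ppargc1a, which encodes PGC-1alpha, had 18.2 and 41.6 CPM in KO, against 9.79 and 7.97 CPM in WT, with a log2 fold change of 1.75 (SE 0.38), and 2.23 without mouse 1786. Ppara, a nuclear receptor for fatty acids, had 40.1 and 56.5 CPM in KO, against 22.4 and 19.8 CPM in WT. Esrrg, an oestrogen-related receptor, had 10.7 and 13.0 CPM in KO, against 7.79 and 4.35 CPM in WT. These 3 regulators did not overlap between the groups. Prdm16, the lineage determinant of brown and beige fat, had 13.0 and 15.7 CPM in KO, against 15.4 and 17.5 CPM in WT. Its partner Ebf2 had 39.6 and 46.4 CPM in KO, against 40.1 and 38.3 CPM in WT. The values of Prdm16 and Ebf2 overlapped between the groups, with log2 fold changes of -0.20 (SE 0.16) and 0.13 (SE 0.12).

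Other genes used as markers of beige or brown cells lay closer to WT, or below it. Elovl3, an elongase of brown fat, had 1.01 and 3.59 CPM in KO, against 0.936 and 1.85 CPM in WT, and the groups overlapped. For Tmem26 and Tbx1, used as beige markers, the log2 fold changes were -0.17 (SE 0.51) and -0.17 (SE 0.43), with overlapping values. Cited1 had 73.3 and 64.8 CPM in KO, against 61.8 and 15.7 CPM in WT, the WT spread being wider than the difference. The 2 members lower at an unadjusted p under 0.05 were Bmp8b and Lhx8. Bmp8b, a secreted factor of brown fat whose exons overlap those of Ppie on the other strand, had 0.105 and 0.0394 CPM in KO, against 0.580 and 0.846 CPM in WT. Lhx8, used as a brown fat marker, had 1.81 and 2.09 CPM in KO, against 2.79 and 5.80 CPM in WT. Fabp3, Dio2, Otop1, Clstn3, Lhx8, Cited1, Tmem26, Tbx1 and the regulators other than Ppargc1a were picked out after their values had been seen.

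The receptor side of the pathway showed little difference. Adrb3, the beta-3 adrenergic receptor, had 386 and 434 CPM in KO, against 372 and 382 CPM in WT, and the log2 fold change was 0.12 (SE 0.17). Over 38 genes of adrenergic and cAMP signalling the median log2 fold change was 0.0727. Of these, 2 were higher and 3 lower at an unadjusted p under 0.05, against 2.68% and 4.72% of all genes. The lowest p belonged to Pde7a, a cAMP phosphodiesterase, with 42.1 and 34.7 CPM in KO, against 28.4 and 29.3 CPM in WT. Adcy5, an adenylyl cyclase, had 117 and 94.6 CPM in KO, against 159 and 269 CPM in WT. Adcy5 stood below WT in each KO library, whereas Pde7a stood above. Futile cycles of creatine and calcium, which can make heat without UCP1, had a median of 0.0116 over 14 genes. Phospho1, a phosphatase of phosphocholine, had the lowest p of these, with 48.3 and 61.9 CPM in KO, against 23.03 and 27.6 CPM in WT. Its exons overlap those of Abi3 and Zfp652, so that its counts may be shared with theirs.

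**Figure D2:**
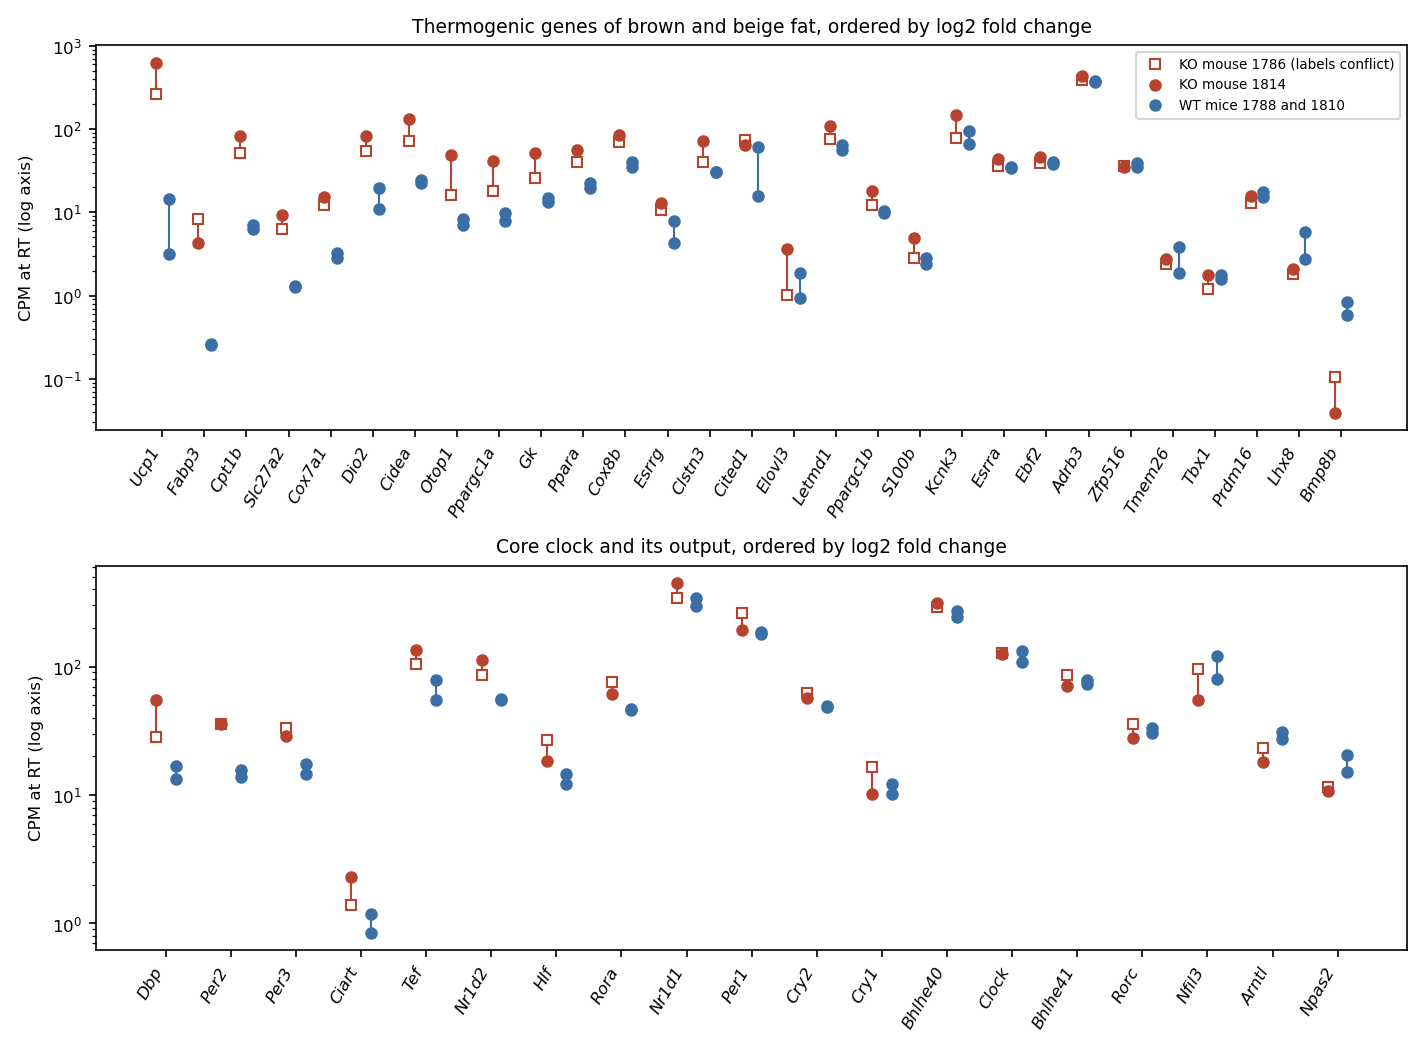
CPM at RT (log axis) of each KO library (left of each pair, open squares for mouse 1786) and each WT library (right) for the 29 tested thermogenic genes and the 19 clock genes, ordered by log2 fold change. Ucp1 and Fabp3 stand farthest above WT, the lineage factors Prdm16, Ebf2 and Zfp516 lie close to WT, and Arntl and Npas2 stand below WT where Per2, Per3 and Dbp stand above.

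Past the entry step, genes of fatty acid oxidation differed by little and mostly in 1 direction. Of 29 tested genes 1 was called, Cpt1b, against 0.0358% of all genes tested. The log2 fold change was positive in 25 of the 29, with a median of 0.17 over the 29. In 17 of them both KO libraries lay above both WT libraries (58.6%, against 19.8% of all genes). Acaa2, the mitochondrial thiolase, had 156 and 194 CPM in KO, against 109 and 105 CPM in WT, with a log2 fold change of 0.72 (SE 0.13). Acadm, the medium-chain acyl-CoA dehydrogenase, had 361 and 512 CPM in KO, against 294 and 295 CPM in WT. Hadha, of the trifunctional protein, had 485 and 702 CPM in KO, against 423 and 441 CPM in WT. In all 3 the WT libraries were close to each other and mouse 1814 was the higher KO library. Without KO mouse 1814 the median of the list was 0.10, and without KO mouse 1786 it was 0.24.

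Coenzyme A metabolism held a few genes with large differences in a list that otherwise lay near 0. The median was 0.0617 over 33 genes. Of these 1 was called, Slc27a2, against 0.0358% of all genes tested. Pank1, the pantothenate kinase that starts coenzyme A synthesis, had 28.0 and 38.0 CPM in KO, against 15.3 and 13.7 CPM in WT. Acot11, a thioesterase of brown fat, had 16.6 and 60.2 CPM in KO, against 6.27 and 7.16 CPM in WT, and mouse 1814 was more than 3-fold above mouse 1786. Its exons overlap those of Fam151a on the other strand, and the strand setting of the counting is not given. Vnn1, the pantetheinase that cleaves pantetheine from coenzyme A breakdown, stood on the other side with 5.09 and 5.36 CPM in KO, against 13.8 and 10.7 CPM in WT. Acsl1, the main long-chain acyl-CoA synthetase of adipocytes, had 2349.5 and 3266 CPM in KO, against 2310.2 and 1994 CPM in WT, and the log2 fold change was 0.38 (SE 0.39).

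Genes of fat synthesis stood somewhat higher in KO, with wide spread. The median over 23 genes was 0.41 with 20 positive and 0 called. At an unadjusted p under 0.05, 1 was higher and 1 lower, against 2.68% and 4.72% of all genes. Scd1, the stearoyl-CoA desaturase, was the gene with the most counts in each of the 4 libraries, with 3.45% and 3.84% of all counts in KO, against 2.04% and 2.78% in WT. Fasn, the fatty acid synthase, had 13951 and 22242 CPM in KO, against 10123 and 17129 CPM in WT, and its groups overlapped. Dgat2, which completes triglycerides, had 1559 and 2116 CPM in KO, against 1027 and 1172 CPM in WT. Mogat2, a monoacylglycerol acyltransferase at the lowest p of the list, had 2.53 and 3.84 CPM in KO, against 1.35 and 1.18 CPM in WT. The lower gene was Elovl5, an elongase of polyunsaturated fatty acids, with 126 and 130.3 CPM in KO, against 148 and 181 CPM in WT. These 3 did not overlap between the groups. The median was 0.0808 without KO mouse 1814, 0.17 without WT mouse 1788 and 0.82 without WT mouse 1810, so the level of this list moved with single libraries.

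Lipid droplet and lipolysis genes had a median of 0.0969 over 28 genes, which turned to -0.12 with the housing of the titles. Beside Cidea and Gk, Vldlr, a receptor for triglyceride-rich lipoproteins, had 86.5 and 102 CPM in KO, against 60.5 and 61.1 CPM in WT. Hilpda, an inhibitor of lipolysis induced by hypoxia, had 10.6 and 10.5 CPM in KO, against 14.7 and 15.5 CPM in WT. The differences in Vldlr and Hilpda were larger than the spread within either group. General adipocyte markers differed by little. Their median was 0.12 over 16 genes, -0.23 with the housing of the titles, and Gpd1, the glycerol-3-phosphate dehydrogenase that feeds triglyceride synthesis, had the lowest p among them with 1673 and 2889 CPM in KO, against 1095 and 1371 CPM in WT. Slc2a4, the insulin-responsive glucose transporter, had 260.1 and 333 CPM in KO, against 198 and 204 CPM in WT. Pparg, the nuclear receptor of adipogenesis, had 313 and 277 CPM in KO, against 204 and 221 CPM in WT. In 8 of the 16 (50.0%, against 19.8% of all genes) both KO libraries lay above both WT libraries, and in 1 (6.25%, against 23.1%) below. Of the 16, 12 had positive and 4 negative log2 fold changes, with Cfd at -0.64 and Car3 at -0.23 among the negative ones. The summed CPM of the markers was lower in KO, at 43064 and 40966, against 44939.5 and 44319 in WT, although their median was positive. The mean level of the markers, on the log2 scale and centred over the 9 libraries, was 0.126 and 0.0922 in KO, against -0.0591 and -0.0669 in WT.

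Genes of glycogen metabolism lay on both sides of WT. Of 26 tested, 1 was called, Ppp1r3b, against 0.0358% of all genes tested. At an unadjusted p under 0.05, 4 were higher and 0 lower, against 2.68% and 4.72% of all genes. The median was 0.11, and -0.00457 with the housing of the titles. Ppp1r3d, another glycogen-targeting subunit of protein phosphatase 1, had 15.5 and 16.8 CPM in KO, against 7.12 and 7.51 CPM in WT. Gys2, the liver-type glycogen synthase, had 30.8 and 63.2 CPM in KO, against 15.9 and 20.2 CPM in WT. Gbe1, the branching enzyme, had 155 and 258 CPM in KO, against 109 and 135 CPM in WT. All 3 lay above WT in each KO library. Pygl, the liver-type phosphorylase that degrades glycogen, had 320.2 and 522 CPM in KO, against 243 and 309 CPM in WT, and the log2 fold change was 0.61 (SE 0.30). Gyg, glycogenin, which primes synthesis, stood below WT with 88.1 and 95.1 CPM in KO, against 103 and 132 CPM in WT, and Pgm1, a phosphoglucomutase, had 28.6 and 31.9 CPM in KO, against 32.9 and 32.0 CPM in WT. Gyg, Pgm1, the muscle and brain phosphorylases and the subunits of phosphorylase kinase were picked out after their values had been seen. These subunits had log2 fold changes between -0.70 (Phkg1) and 0.20 (Phkg2). The muscle and brain phosphorylases Pygm and Pygb lay at -0.0095 and -0.0036.

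The tricarboxylic acid cycle and pyruvate oxidation stood higher in nearly all of their genes, each by a small amount. Of 26 tested genes, 25 had positive log2 fold changes, and in 17 (65.4%, against 19.8% of all genes) both KO libraries lay above both WT libraries, with 0 on the other side. The median was 0.33, 0 genes were called and 2 were higher at an unadjusted p under 0.05, against 2.68% of all genes. Pdp2, the phosphatase that activates pyruvate dehydrogenase, had 24.6 and 26.3 CPM in KO, against 15.5 and 14.0 CPM in WT. Sucla2, a subunit of succinyl-CoA synthetase, had 182 and 226 CPM in KO, against 124 and 128 CPM in WT. Idh3a, a catalytic subunit of NAD-dependent isocitrate dehydrogenase, had 287 and 405 CPM in KO, against 233 and 219 CPM in WT. The WT values of each were close, and the lower KO value stood above both. Without KO mouse 1814 the list had a median of 0.17, and without KO mouse 1786 of 0.54.

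Nuclear genes of oxidative phosphorylation differed less. Of 81 tested, 1 was called, Cox7a1, against 0.0358% of all genes tested. Of the 81, 65 were positive and the median was 0.12, which turned to -0.0298 without KO mouse 1814. In 14 genes (17.3%, against 19.8% of all genes) both KO libraries lay above both WT libraries. Cycs, cytochrome c, had 81.6 and 125 CPM in KO, against 70.1 and 76.1 CPM in WT. Atp5g1, a subunit of the ATP synthase ring, had 44.8 and 47.4 CPM in KO, against 62.2 and 64.6 CPM in WT, and was the lowest of the 81 by log2 fold change, at -0.46 (SE 0.14). Atp5a1 and Atp5b, subunits of the catalytic part of ATP synthase, lay at log2 fold changes of 0.18 (SE 0.23) and 0.16 (SE 0.24). Mitochondrial ribosomal proteins had a median of 0.0102 over 77 genes. Cox7a1 and Cox8b were the only 2 of the 81 with a log2 fold change above that of Cycs, 0.50 (SE 0.28).

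Cytosolic ribosomal proteins stood slightly below WT at RT. All 81 tested genes had negative log2 fold changes, from -0.43 to -0.0700, with a median of -0.21. In 66 of them (81.5%, against 23.1% of all genes) both KO libraries lay below both WT libraries, and 0 were called. Rpl27 had 95.0 and 108 CPM in KO, against 142 and 130.2 CPM in WT. Rps29 had 154 and 162 CPM in KO, against 215 and 199 CPM in WT. Rpsa, 1 of the 2 with the highest CPM, had 855 and 865 CPM in KO, against 1051 and 968 CPM in WT. The gap between the groups was small, and larger than that between the KO libraries. The mean level of the list, on the log2 scale and centred over the 9 libraries, was -0.243 and -0.223 in KO, against 0.0492 and -0.0973 in WT, a difference far smaller than that of single thermogenic genes. In cold the median was -0.0815, and with the housing of the titles the median at RT was -0.0297. These genes have many processed copies in the genome, and only reads that mapped to 1 place were counted.

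Most clock genes stood above WT at RT. In the loop of the clock BMAL1 (Arntl) with CLOCK or NPAS2 drives the Per and Cry genes and Rev-erb receptors, which feed back on it, and output factors such as DBP, TEF and HLF follow. Per2 had 35.5 and 35.6 CPM in KO, against 15.7 and 13.8 CPM in WT, with a log2 fold change of 1.27 (SE 0.19) and an adjusted p of 0.195 from edgeR's quasi-likelihood test. Per3 had 33.2 and 29.1 CPM in KO, against 17.6 and 14.6 CPM in WT. Nr1d2, a Rev-erb receptor, had 85.3 and 112 CPM in KO, against 56.3 and 54.6 CPM in WT. In each of these the WT mice were close to each other and below both KO mice.

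Dbp, whose exons overlap those of Sphk2 on the other strand, had 28.3 and 54.8 CPM in KO, against 16.7 and 13.2 CPM in WT. Of the 19 clock genes, 8 were higher and 2 lower at an unadjusted p under 0.05, against 2.68% and 4.72% of all genes. Of the 19, 0 were called. The 2 lower genes were Arntl and Npas2, of the activating arm, picked out after their values had been seen. Arntl had 23.4 and 18.2 CPM in KO, against 27.5 and 30.9 CPM in WT. Npas2 had 11.5 and 10.7 CPM in KO, against 15.2 and 20.7 CPM in WT. Their partner Clock, also picked out afterwards, had 127 and 125 CPM in KO, against 109 and 133 CPM in WT, with overlapping values. The median of the list was 0.30, and 0.28 without KO mouse 1786. The mean log2 level, centred over the 9 libraries, was 0.0463 and -0.0220 in KO, against -0.365 and -0.365 in WT, and 0.052 to 0.29 in the 5 libraries in cold, so the WT libraries at RT were the lowest of all. In cold the log2 fold change of Per2 was 0.15 (SE 0.17) and that of Dbp was 0.08 (SE 0.26). The labels do not give the time of day at which fat was taken, and its part in these differences was not tested.

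Genes that respond to stimulation or stress within minutes to hours showed single differences and no shared direction. Nr4a3, an orphan nuclear receptor induced by cAMP, had 184 and 115 CPM in KO, against 73.9 and 73.3 CPM in WT. Its relative Nr4a2 had 93.7 and 65.8 CPM in KO, against 42.6 and 36.6 CPM in WT. Both stood above WT, with mouse 1786 the higher. Fos, the classical immediate early gene, had 2432 and 2888 CPM in KO, against 3078 and 3059 CPM in WT, and the median over 27 such genes was 0.0499. Heat shock and unfolded protein response genes had a median of 0.00174 over 24. Among them Dnaja1, a cytosolic co-chaperone, had 201 and 221 CPM in KO, against 152 and 158 CPM in WT, while the endoplasmic reticulum genes Pdia4, Pdia6 and Xbp1 had log2 fold changes of -0.42 (SE 0.13), -0.38 (SE 0.13) and -0.37 (SE 0.14). Cholesterol synthesis and uptake had a median of 0.19 over 25 genes, 0.0621 without WT mouse 1788 and 0.44 without WT mouse 1810. Sc5d, a late enzyme of the pathway, had 129.5 and 128 CPM in KO, against 78.9 and 85.9 CPM in WT. Ebp, another late enzyme, stood on the other side with 37.2 and 44.7 CPM in KO, against 58.0 and 61.1 CPM in WT.

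Genes of DNA methylation and demethylation, Tet1 among them, had a median of 0.0257 over 25 genes, and -0.0257 without KO mouse 1786. Tet2 had 39.5 and 34.0 CPM in KO, against 30.9 and 41.9 CPM in WT, with overlapping groups. Tet3 had 119 and 87.5 CPM in KO, against 79.6 and 87.2 CPM in WT. Dnmt3a, a de novo methyltransferase, had 82.4 and 62.8 CPM in KO, against 57.9 and 54.2 CPM in WT. For each of the 3 the gap between the groups was smaller than the spread within one of them. Gadd45g, a stress gene linked to demethylation, had 130.3 and 125 CPM in KO, against 158 and 215 CPM in WT.

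No gene was called lower in KO at RT, and the 12 with the lowest p on that side are given here and with the chemokines. Slpi, an inhibitor of leukocyte proteases, lies at chr2:164354070-164389095 and had 6.97 and 6.98 CPM in KO, against 18.5 and 17.3 CPM in WT, with a log2 fold change of -1.36 (SE 0.17) and an adjusted p of 0.0752 from edgeR's quasi-likelihood test. It was called when no filter on low counts was applied, the 1 gene lower in that fit. Slpi is secreted by glands among other tissues, and the 19 markers of mammary and gland epithelium summed to 5107 and 6144 CPM in KO, against 6705 and 7529 CPM in WT, whose part in the value of Slpi was not tested. Thbs2, a thrombospondin of the matrix, had 115 and 117 CPM in KO, against 204 and 214 CPM in WT. Chrdl1, an antagonist of bone morphogenetic proteins, had 49.3 and 52.5 CPM in KO, against 90.1 and 76.6 CPM in WT. The replicates of these genes were close to each other, and the KO values lay below the WT values.

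The other members of the 12 with the lowest p were more variable. Tgm2, tissue transglutaminase, had 469.7 and 955 CPM in KO, against 1941 and 2970.3 CPM in WT, and its exons overlap those of Rprd1b on the other strand. Padi2, which turns arginine to citrulline in proteins, had 10.6 and 22.6 CPM in KO, against 50.2 and 107 CPM in WT. For both, KO mouse 1786 was the lowest library, and the log2 fold change of Padi2 was -2.24, or -1.79 without that mouse. Gsr, glutathione reductase, had 45.6 and 73.2 CPM in KO, against 133 and 110.0 CPM in WT. Gng12, a G protein gamma subunit, had 198 and 227 CPM in KO, against 338 and 371 CPM in WT. The spread of Gng12 within each group was small beside the gap. Matn4, matrilin 4, had 1.57 and 1.38 CPM in KO, against 3.67 and 3.93 CPM in WT. Rasa4, a Ras GTPase activator, had 14.9 and 14.999 CPM in KO, against 21.3 and 24.2 CPM in WT. Cystm1, a small membrane protein, had 9.86 and 11.98 CPM in KO, against 18.4 and 19.5 CPM in WT. These 3 had KO libraries close to each other, and the long non-coding RNA Gm14005 had 1.74 and 2.07 CPM in KO, against 6.39 and 12.6 CPM in WT. The 12th gene, Ccl9, is given with the chemokines. In the cold libraries the log2 fold changes of the 12 lay between -0.79 and 0.15.

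Genes of tissue-resident myeloid cells stood lower in KO at RT as a group. Of 29 Fc receptors and lectins of these cells, 0 were called. At an unadjusted p under 0.05, 21 were lower and 0 higher, against 4.72% and 2.68% of all genes. In 24 of the 29 (82.8%, against 23.1% of all genes) both KO libraries lay below both WT libraries. The median log2 fold change was -0.95, and -0.76 without KO mouse 1786 and -0.44 with the housing of the titles. Several members, Fcrls, Fcgr2b, Mrc1 and Cd209g among them, are genes that the study reported as lower in KO at RT from these same data. The share and median of the list are therefore a description and no independent support. Fcrls, of the Fc receptor family, had 14.3 and 18.1 CPM in KO, against 37.3 and 26.5 CPM in WT. Fcgr2b, the inhibitory Fc gamma receptor, had 14.7 and 22.2 CPM in KO, against 38.2 and 32.6 CPM in WT. Mrc1, the macrophage mannose receptor, had 53.2 and 105 CPM in KO, against 165 and 172 CPM in WT. KO mouse 1786 was the lowest of the 4 libraries for each. Stab1, a scavenger receptor, had 65.6 and 79.7 CPM in KO, against 96.6 and 107 CPM in WT. Cd209g, a lectin of a family of close copies whose reads may be shared, had 3.10 and 7.43 CPM in KO, against 20.8 and 14.0 CPM in WT. Exceptions were Marco and Clec7a, with log2 fold changes of 1.13 (SE 0.56) and 0.77 (SE 0.42), named after their values had been seen.

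General macrophage markers followed the same order of libraries. They have members in common with other lists, such as Mrc1 with the Fc receptors and lectins above and C1qb with the complement genes below. Several macrophage markers, Itgam and Mrc1 among them, were also reported as lower in KO at RT by the study. Their part in the other results on myeloid genes was not tested. Their median was -0.95 over 20 genes, 17 of which (85.0%, against 23.1% of all genes) had both KO libraries below both WT libraries, and their summed level was 832 and 1138 CPM in KO, against 1974 and 1516 CPM in WT. Trem2, a lipid receptor of macrophages, had 0.906 and 1.26 CPM in KO, against 3.37 and 2.95 CPM in WT. Itgam, an integrin of myeloid cells, had 14.3 and 24.8 CPM in KO, against 50.9 and 40.9 CPM in WT. The exceptions were Mertk, above WT in both KO libraries, and Cx3cr1 and Cd14, which overlapped, with log2 fold changes of 0.25 (SE 0.13), -0.11 (SE 0.39) and 0.02 (SE 0.23). KO mouse 1786 was the lowest of the 4 libraries for the list. Without it the median was -0.69, and with the housing of the titles it was -0.45.

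Of 22 complement genes, 19 had both KO libraries below both WT libraries (86.4%, against 23.1% of all genes) and 0 were called. C3, the central component, had 2108 and 2322 CPM in KO, against 2936 and 4195 CPM in WT. Cfp, properdin, had 19.98 and 37.1 CPM in KO, against 77.1 and 49.3 CPM in WT. Cfd, the adipocyte protease adipsin, which takes part in the same pathway, had 6813 and 6849 CPM in KO, against 9319.6 and 12013 CPM in WT. Adipocytes make C3 and Cfd, and the part of adipocyte RNA in these values was not tested. The summed adipocyte markers, 43064 and 40966 CPM in KO, against 44939.5 and 44319 CPM in WT, hold Cfd itself. C1qb, which macrophages make, had 70.1 and 99.8 CPM in KO, against 168 and 144 CPM in WT. The median was -0.65, and -0.46 without KO mouse 1786.

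Among 32 chemokine ligands 7 were lower and 2 higher at an unadjusted p under 0.05, against 4.72% and 2.68% of all genes. Of the 32, 0 were called. Ccl9 had 28.8 and 40.2 CPM in KO, against 68.6 and 78.0 CPM in WT. Ccl6 had 33.8 and 69.6 CPM in KO, against 132 and 127 CPM in WT. Ccl8 had 6.24 and 13.1 CPM in KO, against 26.8 and 24.7 CPM in WT. These 3, made by macrophages, did not overlap between the groups, and the gap was widest in Ccl8. Cxcl12, made by stromal cells, had 279 and 301 CPM in KO, against 356 and 371 CPM in WT, with a log2 fold change of -0.32 (SE 0.13). The 2 higher ligands were Ccl5 and Cxcl9, picked out after their values had been seen. Ccl5, made by T cells among others, had 9.77 and 7.13 CPM in KO, against 5.24 and 4.78 CPM in WT. Cxcl9, induced by interferon-gamma, had 136 and 106 CPM in KO, against 101 and 64.5 CPM in WT. The median of the list was -0.32. Interferon response genes had a median of -0.24 over 38, which turned to 0.0298 without WT mouse 1788. Bst2, an antiviral membrane protein, had 47.3 and 61.8 CPM in KO, against 98.0 and 71.2 CPM in WT. Iigp1, an interferon-induced GTPase, stood on the other side with 473 and 440.0 CPM in KO, against 286 and 219.9 CPM in WT.

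Lists of markers of other immune cells had negative medians at RT, some of which turned without a single library or with the housing of the titles. Neutrophil markers had a median of -1.20 over 10 genes with 0 called, which was -0.52 without WT mouse 1788 and -0.65 with the housing of the titles, and the summed level was 36.6 and 178 CPM in KO, against 233 and 202 CPM in WT. Mmp9, the matrix protease of neutrophils, had 4.77 and 9.38 CPM in KO, against 15.5 and 21.6 CPM in WT. Csf3r, the receptor for granulocyte colony-stimulating factor, had 3.29 and 2.86 CPM in KO, against 5.86 and 4.43 CPM in WT. S100a8, the calcium-binding protein that fills neutrophils, had 0.192 and 0.237 CPM in KO, against 0.936 and 0.275 CPM in WT. The defining neutrophil gene S100a8 was thus near 0, and most of the sum came from Ltf, lactoferrin, which glands also make, with 24.7 and 161 CPM in KO, against 203 and 170.1 CPM in WT. Mast cell proteases stood lower. Mcpt4 had 10.3 and 10.2 CPM in KO, against 16.0 and 28.9 CPM in WT. Cma1 had 9.13 and 9.42 CPM in KO, against 13.2 and 24.8 CPM in WT. WT mouse 1810 was the highest library for both. Without it the median of the 9 mast cell markers was -0.26, with the housing of the titles -0.15, and with all libraries -0.76. Markers of dendritic cells and MHC class II had a median of -0.0692, which turned to 0.12 without WT mouse 1788 and 0.29 with the titles. Those of T and NK cells had -0.0342, with 0.55 without WT mouse 1788 and -0.39 without WT mouse 1810. Markers of B and plasma cells had a median of -0.52, with 1.38 without WT mouse 1788 and -1.34 without WT mouse 1810. B cell markers differed between the WT mice by more than between the groups, for instance Cd79a with 1.99 and 5.85 CPM in KO, against 9.77 and 1.46 CPM in WT.

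**Figure D3:**
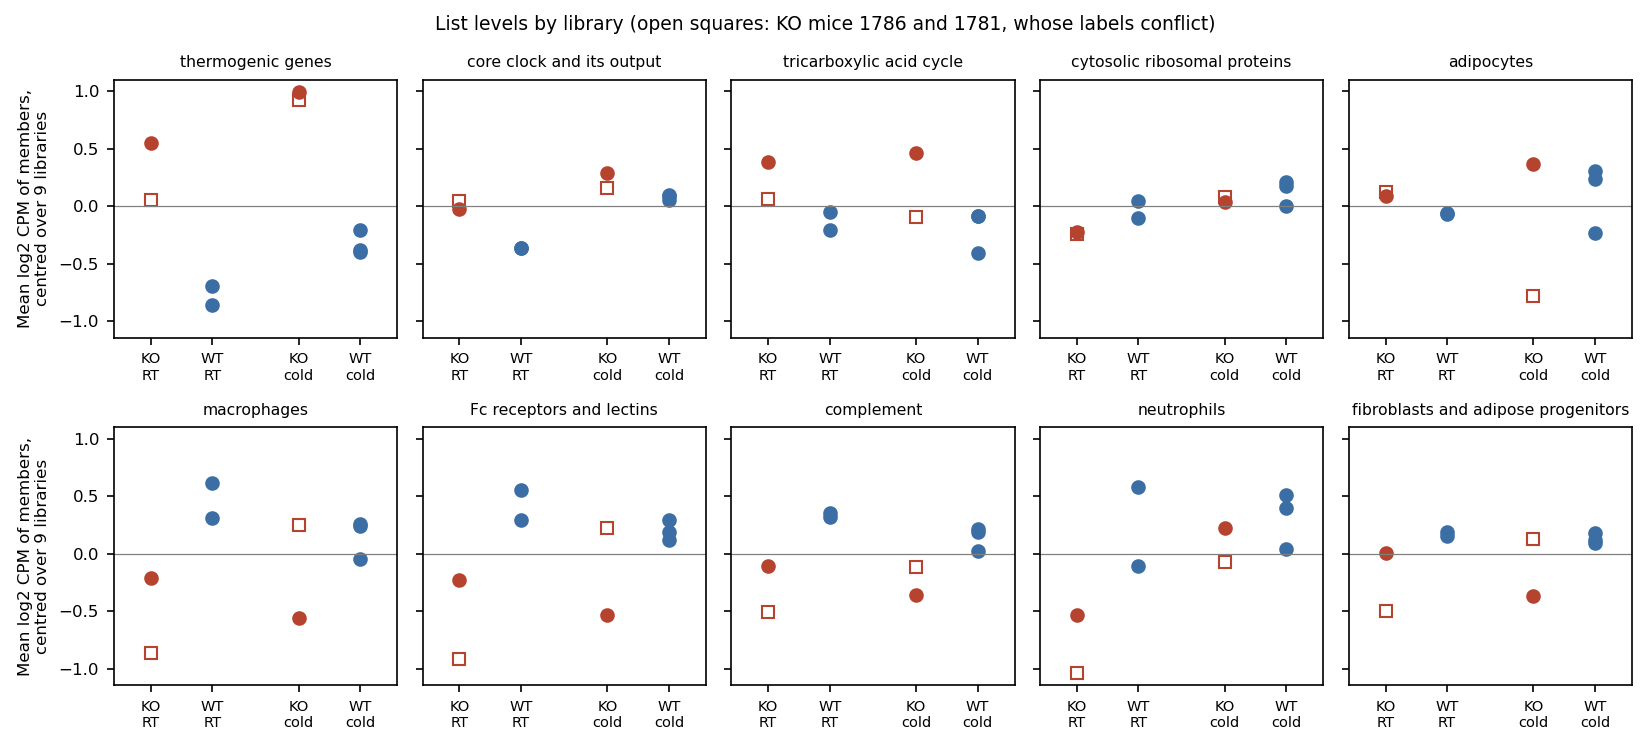
Mean log2 CPM of the members of 10 lists in each library, centred over the 9 libraries, for KO and WT at RT and in cold. At RT the KO libraries stand above WT for thermogenic and clock genes and below WT for the myeloid lists, where mouse 1786 (open square at RT) is the lowest library, and the adipocyte markers of the 4 RT libraries lie close together.

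Lists of stroma and matrix differed in sign, and 0 of their genes were called. Markers of fibroblasts and adipose progenitors had a median of -0.43 over 16 genes, 10 of them (62.5%, against 23.1% of all genes) with both KO libraries below both WT libraries, and -0.13 without KO mouse 1786. Cd34, a surface marker of progenitors, had 157 and 190.0 CPM in KO, against 262 and 256 CPM in WT. Fbn1, fibrillin 1, had 235 and 311 CPM in KO, against 363 and 479 CPM in WT. Col1a1 and Col3a1, the main fibrillar collagens, lay at log2 fold changes of -0.12 (SE 0.23) and -0.12 (SE 0.23). Genes of matrix assembly and remodelling had a median of -0.25 over 41, which was 0.0486 with the housing of the titles. Fbln1, fibulin 1, had 31.3 and 38.8 CPM in KO, against 60.4 and 65.4 CPM in WT. Collagens had a median of 0.0769 over 42 genes, which turned to -0.0805 without KO mouse 1786.

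Of the markers of vessels and nerve, 0 were called. Endothelial markers had a median of -0.13 over 14, -0.000294 without KO mouse 1786 and 0.0684 without WT mouse 1788. Vwf, von Willebrand factor, had 95.0 and 121 CPM in KO, against 150.5 and 150.4 CPM in WT. Pericyte and smooth muscle markers had a median of -0.11 over 13. The 12 markers of nerve and Schwann cells had a median of -0.30, and 5 of them (41.7%, against 23.1% of all genes) had both KO libraries below both WT libraries. Among the 12, Ngfr, the low-affinity neurotrophin receptor, had 6.05 and 6.68 CPM in KO, against 13.7 and 56.02 CPM in WT, where WT mouse 1810 was far above WT mouse 1788. Markers of lymphatic endothelium had a median of 0.0313 over 5 genes.

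Inguinal fat holds mammary ducts in female mice, and genes of milk proteins stood on both sides of WT. The casein gene Csn2 had 3.45 and 1.46 CPM in KO, against 0.1498 and 0 CPM in WT. Csn1s1, another casein, had 12.1 and 3.19 CPM in KO, against 1.05 and 0.787 CPM in WT. For both, KO mouse 1786 was the highest library at RT. Lalba, alpha-lactalbumin, stood on the other side with 0.697 and 3.27 CPM in KO, against 6.46 and 7.20 CPM in WT. Csn3, kappa-casein, had 96.7 and 132 CPM in KO, against 172 and 187 CPM in WT. Aqp5, a water channel of glands, had 41.3 and 103 CPM in KO, against 129 and 242 CPM in WT. These 3 had both KO libraries below both WT libraries. Krt19, a keratin of ducts, had 600.2 and 864 CPM in KO, against 1157 and 961 CPM in WT. The median of the 19 gland markers was -0.0510, and 0.12 with the housing of the titles. Lalba, Csn3 and Krt19 were picked out after their values had been seen.

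Further lists bear on what the samples held. The skeletal muscle markers had a median of 0.41 over 15 genes and 0.0529 without WT mouse 1810, and Actn3, an actinin of fast muscle fibres, had 2.37 and 2.84 CPM in KO, against 1.24 and 0.826 CPM in WT. Erythroid genes had a median of 0.39 over 7, against 0.00864 without KO mouse 1814, 0.0820 without WT mouse 1810 and 0.0281 with the housing of the titles. The globin gene Hbb-bs, which has a close copy, had 157 and 269 CPM in KO, against 189 and 122.8 CPM in WT. Lymph node markers differed between the WT mice, as Cr2, a receptor of B cells and follicles, shows with 0.314 and 1.66 CPM in KO, against 2.77 and 0.256 CPM in WT. Cell cycle genes had a median of 0.40 over 30 genes, -0.11 without KO mouse 1786, and 0 of them had an unadjusted p under 0.05. Mki67, a marker of dividing cells, had 90.0 and 35.7 CPM in KO, against 44.3 and 23.1 CPM in WT, and overlapped between the groups.

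**Figure D4:**
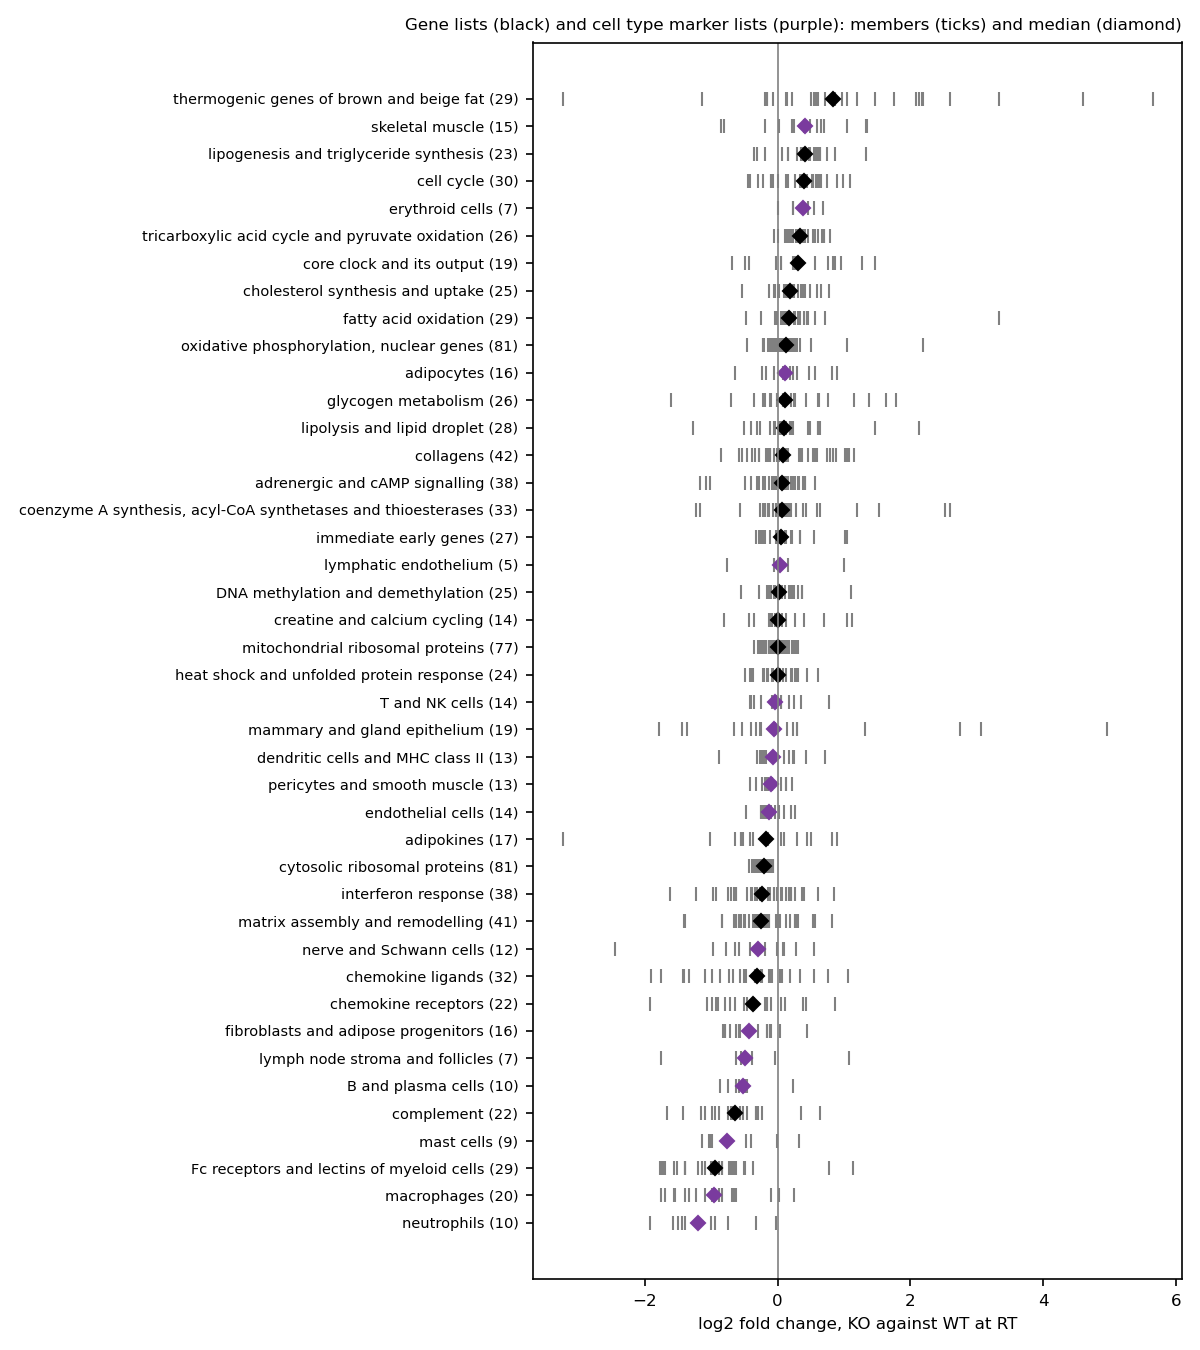
Log2 fold changes, KO against WT at RT, of the tested members (ticks) of 26 gene lists (black median) and 16 cell type marker lists (purple median), with the number of tested members in brackets. Thermogenic genes have the highest median, 0.83, and neutrophil, macrophage and Fc receptor lists the lowest, -1.20 to -0.95, while cytosolic ribosomal proteins form a narrow band below 0.

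The mice in cold, which are other animals, give the values with which the RT differences can be set side by side. There 13 genes rose in KO (0.0776% of those tested) and 0 fell (0%), and the 13 included all 6 genes called at RT. The log2 fold changes in cold were 2.88 (SE 0.27) for Cpt1b, 3.66 (SE 0.22) for Slc27a2, 2.28 (SE 0.20) for Cox7a1, 1.63 (SE 0.17) for Ppp1r3b and 6.92 (SE 0.55) for Myt1l. Cidea, which was called in cold and not at RT, lay at 2.502 (SE 0.28) there. Of these, Slc27a2 had the widest gap between the temperatures, and for it, too, the test of the difference gave an adjusted p of 1.00 from edgeR's quasi-likelihood test.

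For Ucp1 the KO libraries at RT, at 261 and 623 CPM, lay above all 3 WT libraries in cold, at 168, 147 and 213 CPM. After cold it had 1062 and 1483 CPM in KO, against 168, 147 and 213 CPM in WT, and the log2 fold change was 2.85 (SE 0.56). For Ppargc1a the KO libraries at RT, at 18.2 and 41.6 CPM, lay on either side of the WT libraries in cold, where it had 80.8 and 125 CPM in KO, against 37.5, 28.6 and 39.7 CPM in WT. Atp7b, apart at RT, overlapped in cold, where it had 0.350 and 0.598 CPM in KO, against 0.544, 0.470 and 0.293 CPM in WT. Slpi had log2 fold changes of -1.36 at RT and 0.15 (SE 0.16) in cold. Whether the KO effect in cold differed from that at RT was tested for every gene, and the test passed an adjusted p under 0.05 for 0 genes in edgeR's quasi-likelihood test, with 458 at an unadjusted p under 0.05, 5 by DESeq2's Wald test and 4 by edgeR's likelihood ratio test. No gene is therefore shown by that test to have a KO effect that differs between the temperatures, Atp7b and Slpi included.

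**Figure D5:**
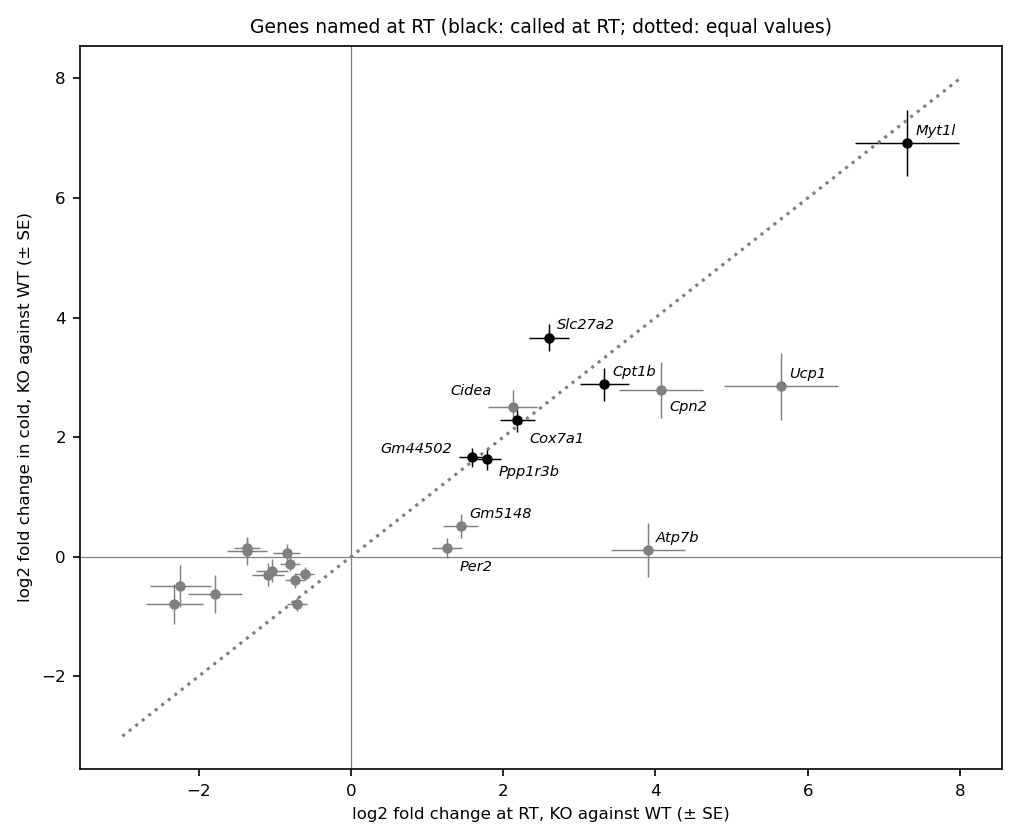
Log2 fold changes of KO against WT at RT (x axis) and in cold (y axis), each with its approximate standard error, for the 24 genes named by p at RT, with the 6 called genes in black. The called genes and Cidea lie near the dotted line of equal values, while Atp7b, Per2 and all 12 genes lower at RT lie nearer to 0 in cold, apart from Chrdl1.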

How the data were processed

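RNA of inguinal white adipose tissue was sequenced on a BGISEQ instrument, as the labels state. Per the submitters' processing notes and the study's methods, the authors aligned reads to mm10 with STAR, kept uniquely mapped reads, counted them per gene with featureCounts and removed mitochondrial reads. The deposited table holds raw counts of 24539 genes in 9 libraries, which were used, and RPKM values, which were not. For the versions of these tools, the annotation and the strand setting, nothing is given in the sources used here.

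Libraries were grouped by the names of their columns. Genes were filtered with filterByExpr (16745 kept, 4210 of the others without a count in any library), scaled by TMM and fitted in edgeR 4.0.16 (R 4.3.3, limma 3.58.1) as 1 quasi-likelihood model of 9 libraries in 4 groups with robust estimation. The biological coefficient of variation was 0.193. Calls needed a Benjamini-Hochberg adjusted p under 0.05 and a fold change above 1.5. Levels on the log2 scale used a prior count of 2. Medians are over the members that passed the filter. P-values measure the spread between these libraries, 1 per mouse by column name. The smallest chi-square per gene between 2 libraries of a group was 46.2, so none was a copy of another.

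The comparison, its 26 gene lists and its 16 marker lists were chosen with earlier results of these data known. Genes named by rule were the called genes, those of lowest p whose libraries did not overlap, up to 12 per direction, the Tet genes and 4 thermogenic genes of the study, and in each list the 4 of lowest p and the 2 of highest CPM, of which the text gives some and some are not reported here. Genes outside the rule are said to have been picked out after their values had been seen, as were the exceptions in the macrophage list.

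Alternatives were the housing of the titles, leaving out both mice of conflicting labels or each library in turn, the RT libraries alone, other scalings and filters, DESeq2 1.42.0 and edgeR's likelihood ratio and exact tests. Gene positions are from GENCODE vM21 (23832 genes matched by name) and promoters from RefSeq, both on GRCm38. Scripts were tested on simulated data. Figures were drawn with matplotlib 3.10.9 in Python 3.11.15.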

Additional observations from a re-analysis of the deposited data

How the results depend on the processing

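With 2 libraries per group at RT, the counts of calls depended on the test and on single libraries. At RT, where 6 genes were called higher and 0 lower, the counts were 0 and 0 from the 4 RT libraries alone, 61 and 58 by DESeq2's Wald test, 53 and 56 by edgeR's likelihood ratio test and 81 and 92 by edgeR's exact test, and 7 and 1 with no filter on low counts. Leaving out 1 library gave 0 to 6 higher and 0 to 2 lower. In cold, where 13 were called higher and 0 lower, the counts were 8 and 16 with the housing of the titles, 21 and 6 without the 2 mice whose labels conflict, 66 and 35 by DESeq2, 74 and 30 by the likelihood ratio test and 1 lower with no filter. Leaving out 1 library gave 7 to 17 higher and 0 to 1 lower, with 7 without WT mouse 1783 and 8 without WT mouse 1773. Genes whose KO effect differed between the temperatures numbered 5 by DESeq2, 4 by the likelihood ratio test and 0 to 1 on leaving out 1 library, the 1 without KO mouse 1814, against 0. The causes of these differences between settings were not tested, beyond the fewer libraries that some of them hold. The log2 fold change of Tet1 was positive in all 21 settings, from 0.48 to 1.53, and 0.48 to 1.53 on leaving out 1 library. List medians of macrophages, Fc receptors and lectins, complement, cytosolic ribosomal proteins, thermogenic, clock and tricarboxylic acid cycle genes kept their sign in all 21, while those of adipocytes, lipolysis, oxidative phosphorylation, matrix, collagens, interferon response, cell cycle and endothelium turned in 1 or more, as did the log2 fold change of Elovl3, -0.46 without KO mouse 1814. No paired analysis was possible because the mouse numbers are not shared between groups.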
